A study of Mus musculus with 17 samples.

Results

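The AP-1 family of transcription factors was examined in CD8 T cells from mouse lung tumours, through 9 genes chosen by symbol: Fos, Fosb, Fosl2, Jun, Junb, Jund, Batf, Batf3 and Atf3. All 9 are in the deposited table of 27240 genes and all 9 were among the 20137 genes tested. The cells had been isolated by fluorescence-activated sorting and sequenced in bulk. WT mice were set beside mice without PD-L1 in endothelial cells, called KO in the labels, and at each genotype the cells came from macroscopic nodules (core-enriched) or from nodules of the parenchyma (rim-enriched). There were 5 WT core libraries (F164, H719, H873, H876 and a pool), 6 KO core libraries (F219, F318, F319, F322, F86 and O), 2 WT rim libraries (H874 and H877) and 4 KO rim libraries (F15, F322, F86 and O). The sources used here do not give the Cre line, the tumour model, the age of the mice, or the number of animals behind a library or the pool.

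AP-1 is a dimer. Jun proteins pair with each other or with Fos proteins through a leucine zipper and bind a short DNA element, while Batf and Batf3 pair with Jun proteins and bind with IRF factors at composite sites. In T cells, AP-1 joins signals from the antigen receptor and co-stimulation to activation genes, and Batf is known for its part in effector and exhausted CD8 T cells. Fos, Fosb, Jun, Junb and Atf3 are immediate early genes, whose transcripts appear within minutes of a stimulus, which includes the handling of tissue.

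Total counts ran from 21767045 to 32566456 per library. Transcripts of the CD8 T cell were high in every group, given here in counts scaled to the library total (CPM). Mean Cd8a, the alpha chain of the co-receptor, was 1400 in WT core, 1370 in KO core, 813 in WT rim and 1230 in KO rim. Mean Cd8b1, the beta chain, was 1200 in WT core, 1230 in KO core, 1540 in WT rim and 1390 in KO rim. Cd8a was thus lowest in WT rim, while Cd8b1 was highest there. Transcripts of macrophages and monocytes were present in every library too, with a sum over 10 marker genes of 1720 to 5480 CPM in WT core, 1630 to 4980 in KO core, 1070 to 1810 in WT rim and 576 to 6930 in KO rim, and none of the 10 was at 0 in any group. All libraries are mixtures in this sense, so fewer cells of a type and less RNA per cell cannot be told apart. Cd274, the PD-L1 gene, does not check the deletion, because it was made in another cell type. Sex can be read from Xist, made in female cells, and Ddx3y, a gene of the Y chromosome. Xist was 0 and Ddx3y 189 to 235 CPM in the core and rim libraries of KO F322 and O. The WT pool held both, at 34.9 and 42.3 CPM, and all other libraries held Xist without Ddx3y. Libraries with Ddx3y alone were all KO, so sex and genotype cannot be fully told apart.

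The promoters of these genes are regulated in part by the same kinds of factor that the genes encode, through the AP-1 element TGACTCA and the related cyclic AMP response element. RefSeq promoters (GRCm38.p6) were matched for 9 of 9 members, and the 250 bases before the annotated start were searched on both strands. The starts are those of RefSeq and can differ from the gene spans given below. The promoter entry of Jund (chr8:70697489-70697788) ends before its span begins, and those of Fosl2, Batf3 and Atf3 lie inside their spans. These 3 stretches are shown because Fos and Junb were the most abundant members per length and Jun the member with the widest swings among the abundant ones. They run 5′ to 3′ on the strand of the gene and end at or shortly before the annotated start, and capitals mark the matches.

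Fos (chr12:85473751-85473889, plus strand, capitals TGACG): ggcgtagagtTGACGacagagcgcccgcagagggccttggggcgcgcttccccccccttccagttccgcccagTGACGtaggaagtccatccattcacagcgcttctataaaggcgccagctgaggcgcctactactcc

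Junb (chr8:84978749-84978868, minus strand, capitals TGACG): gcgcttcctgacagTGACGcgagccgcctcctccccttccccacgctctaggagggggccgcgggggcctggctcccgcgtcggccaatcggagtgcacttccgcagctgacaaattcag

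Jun (chr4:95052223-95052342, minus strand, capitals TGACNTCA): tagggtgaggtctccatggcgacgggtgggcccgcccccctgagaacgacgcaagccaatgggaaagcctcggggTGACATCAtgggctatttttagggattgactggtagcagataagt

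The short element TGACG was found in 5 of 9 members (Fos, Fosb, Junb, Batf and Atf3) and in 17.8 percent of all 32851 promoters of the same length. The full response element TGACGTCA, which contains TGACG, was in 0 of 9 and in 1.55 percent of all. The looser form TGACNTCA, which includes TGACGTCA, was in 1 of 9, at positions -45 to -38 of Jun, and in 7.49 percent of all. The element TGACTCA was in 0 of 9 and in 4.46 percent of all. These are matches of letters in a short window and not sites of binding.

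Per unit of transcript length, Junb and Fos stood above the other members in every library. Levels between genes were compared as RPKM, which divides the CPM by the length of the merged exons in kilobases. Junb had a median of 795 RPKM over the 17 libraries, with a range of 624 to 1510, and ranked the highest in 17 of 17. Fos had a median of 310 RPKM, with a range of 172 to 578, and ranked next in 17 of 17. Below them came Batf at a median of 60.2 RPKM, Atf3 at 50.2 and Jun at 27.9, whose ranges overlapped (36 to 86.8, 18.7 to 116 and 7.79 to 169). Fosl2 at 16.7, Fosb at 12.4 and Jund at 11.3 RPKM overlapped as well (6.43 to 29.9, 7.48 to 16.8 and 8.28 to 32.1). Jund shares 52.6 percent of its exonic bases with another gene, so its level and its place in this order are uncertain. Batf3 had a median of 1.85 RPKM and ranked lowest in 17 of 17.

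The members differed in how far they moved between libraries. The highest library exceeded the lowest by 2.24-fold for Fosb, 2.41-fold for Batf, 2.42-fold for Junb, 3.36-fold for Fos, 3.88-fold for Jund, 4.65-fold for Fosl2 and 6.21-fold for Atf3. For Jun the ratio was 21.7 and for Batf3 it was 25.6, the latter from 14 to 443 reads. In the log2 CPM, the SD within groups was 0.217 for Junb, the smallest of the 9, and 1.09 for Jun and 1.19 for Batf3, the largest. Differences of a given size between groups were therefore resolved better for Junb than for Jun or Batf3.

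**Figure D1:**
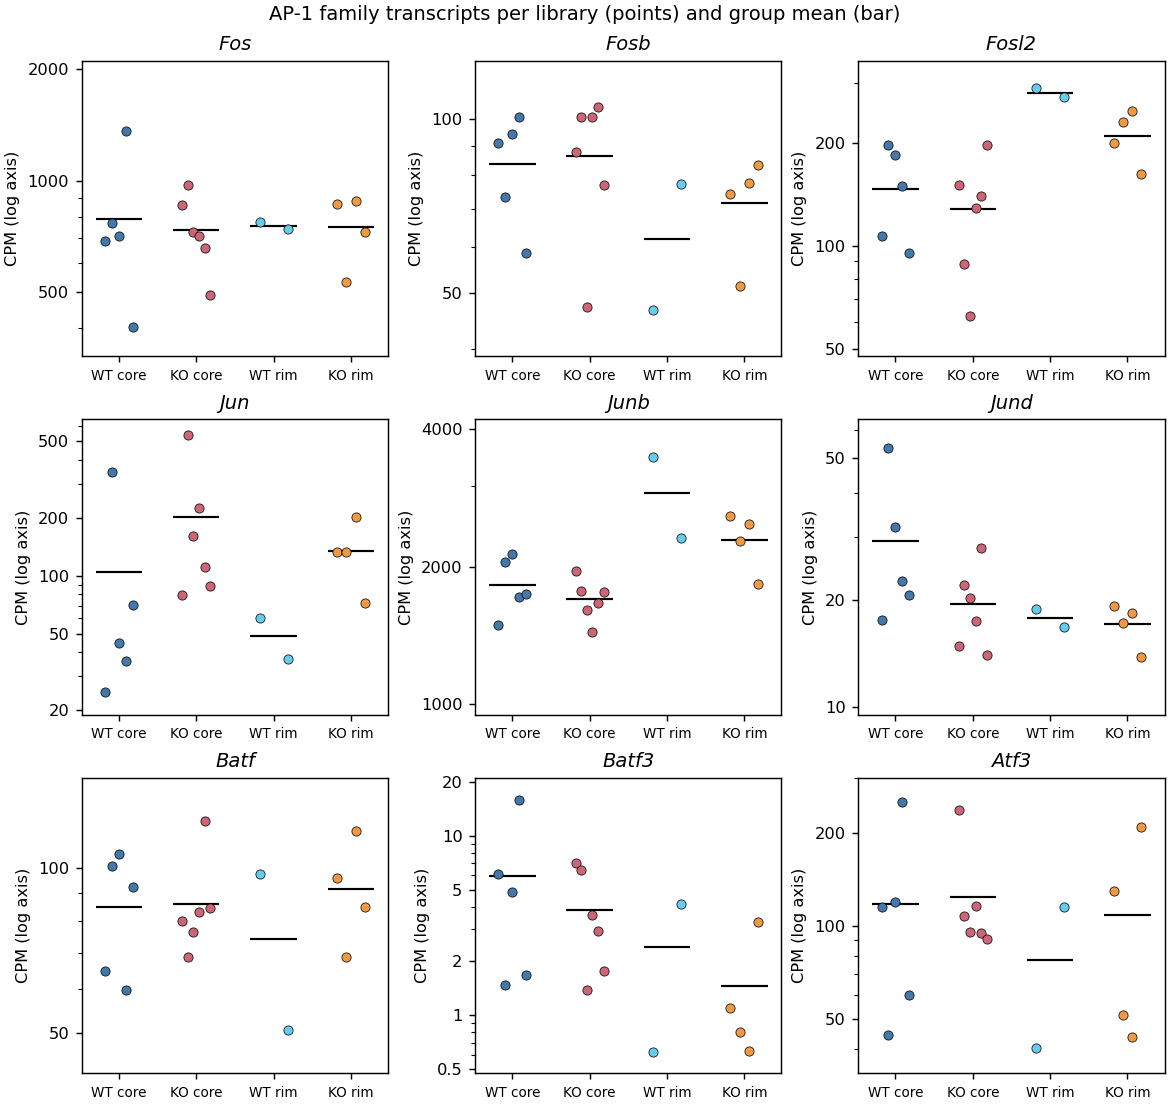
CPM of each AP-1 member (log axis, a scale of its own per panel) in every library, grouped by genotype and site; each point is 1 library and the bar is the group mean. Junb and Fosl2 lay higher in most rim libraries, and Jun, Batf3 and Atf3 spread widely within groups.

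Junb (ENSMUSG00000052837.6, chromosome 8, 84974484 to 84978718, GRCm38) encodes a Jun protein that is induced early in activated T cells. In WT core its CPM were 1490 (F164), 2050 (H719), 2130 (H873), 1720 (H876) and 1740 (pool). In WT rim its CPM were 3480 (H874) and 2310 (H877). All 5 core libraries were below both rim libraries. In KO core its CPM were 1960 (F219), 1770 (F318), 1610 (F319), 1440 (F322), 1670 (F86) and 1760 (O). In KO rim its CPM were 2580 (F15), 2280 (F322), 2480 (F86) and 1830 (O). The KO groups overlapped, since rim O lay below core F219. Over both genotypes, 8 of 11 core libraries were below the lowest rim library and 5 of 6 rim libraries above the highest core library.

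Fosl2 (ENSMUSG00000029135.10, chromosome 5, 32135801 to 32157842) encodes Fra-2, a Fos protein that persists longer than Fos itself. In WT core its CPM were 107 (F164), 197 (H719), 185 (H873), 150 (H876) and 95.1 (pool), and in WT rim 290 (H874) and 273 (H877). Every WT core library was below both WT rim libraries. In KO core its CPM were 151 (F219), 88.3 (F318), 62.3 (F319), 129 (F322), 140 (F86) and 198 (O). In KO rim its CPM were 200 (F15), 230 (F322), 249 (F86) and 162 (O). Core O exceeded rim O, and the KO groups overlapped. As for Junb, 8 of 11 core libraries were below the lowest rim library, and 5 of 6 rim libraries were above the highest core library. The share of all genes with such counts over both genotypes is not given here, for Junb or for Fosl2.

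Setting core beside rim in WT mice asked how the position of the tissue related to the AP-1 genes in CD8 T cells, and Junb was the only member called. Junb averaged 1820 ± 263 CPM (SD, n = 5) in WT core and 2900 ± 824 CPM (SD, n = 2) in WT rim, a fitted log2 ratio of core to rim of -0.67 (SE 0.172, adjusted p = 0.0403, edgeR quasi-likelihood test with Benjamini-Hochberg adjustment over all genes). Calls were made where the adjusted p was under 0.05. Thus 1 of 9 members was called, where 3.86 percent of all genes tested were called, and 2 of 9 had groups that did not overlap, where 19.8 percent of all genes did. Fosl2, the other one, averaged 147 ± 45.5 CPM in core and 281 ± 12 in rim, a log2 ratio of -0.94 (SE 0.337) that was not called (adjusted p = 0.142).

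The call on Junb in WT was near the threshold and rested on individual libraries. Without rim H874, which held the highest Junb level of the series, the log2 ratio was -0.35 (adjusted p = 0.603). Without core F164, H876 or the pool, the adjusted p was 0.0727, 0.0626 or 0.068, with log2 ratios of -0.59, -0.63 and -0.63. With the macrophage marker level as a covariate the log2 ratio was -0.54 (adjusted p = 0.304), and under that covariate the number of genes called in this comparison fell from 777 to 78. The mean log2 CPM of these markers was 4.67 and 4.97 in the WT rim libraries and 5.94 to 7.63 in WT core. Within WT, marker level and site therefore cannot be told apart, which limits what this covariate can show. DESeq2 gave an adjusted p of 0.00794 for Junb.

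None of the other 7 members was called between WT core and rim. Jund, a Jun protein that is made constitutively, averaged 29.2 ± 14.6 CPM in core and 17.8 ± 1.4 in rim, a log2 ratio of 0.71 (SE 0.378, adjusted p = 0.346). Fosb, an immediate early Fos protein, averaged 83.6 ± 17.2 CPM in core and 62 ± 21.6 in rim (log2 ratio 0.43, SE 0.295). Batf3, best known as a factor of cross-presenting dendritic cells, averaged 5.99 ± 5.86 CPM in core and 2.4 ± 2.52 in rim (log2 ratio 1.32, SE 1.03). Jun had a log2 ratio of 1.10 (SE 0.938), which was -0.16 without core H719. Single libraries also set the size of the others: Jund was 0.35 without core H719, and Fosb 0.11 without rim H874 and 0.86 without rim H877. Batf3 was 0.57 without core H876, 0.52 without rim H874 and 3.29 without rim H877. With the macrophage marker covariate, Fosb was 0.14, Batf3 -0.81 and Jun 2.19. Fos, Batf and Atf3 differed by less than their SE. The median log2 ratio over the 9 members was 0.43, beside 0.033 over all genes tested, with 7 members above 0 and 2 below.

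In KO mice, core and rim did not differ in any member past the threshold, and 0 percent of all genes were called by edgeR. At an unadjusted p under 0.05 there were 1600 of 20137 genes and 2 of 9 members, Junb and Fosl2. Junb averaged 1700 ± 177 CPM (SD, n = 6) in core and 2290 ± 334 CPM (SD, n = 4) in rim, a log2 ratio of -0.43 (SE 0.135, adjusted p = 0.62). Fosl2 averaged 128 ± 47.9 and 210 ± 38.1 CPM, a log2 ratio of -0.72 (SE 0.268, adjusted p = 0.62). DESeq2 called 33 genes and limma-voom 2, none of them members. No member had groups that did not overlap, where 1.6 percent of all genes did. Batf3 averaged 3.86 ± 2.37 CPM in core and 1.45 ± 1.23 in rim (log2 ratio 1.40, SE 0.779), and Fosb 86.4 ± 21.8 and 71.6 ± 14 (log2 ratio 0.27, SE 0.224). Without rim O the ratio of Batf3 was 2.17, and without rim F322 that of Fosb was 0.15. The remaining 5 members differed by less than their SE. The median over the members was 0.18, beside 0.029 over all genes.

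In KO, 3 identifiers had both a core and a rim library, although the labels do not say that an identifier marks an animal. Junb in core relative to rim was 0.629 in F322, 0.674 in F86 and 0.963 in O. Fosl2 gave 0.559, 0.562 and 1.23 in the same order, so that O went the other way. Atf3 gave 2.26, 2.17 and 0.435, and Batf3 4.5, 4.69 and 0.533. Of these 4 genes, named after their values were seen, Fosl2, Atf3 and Batf3 went the other way in O. Junb kept its direction in O but lay nearer to 1. Fosb gave 1.96, 1.35 and 0.923, so that O went the other way there too. Among the others O lay opposite to both only for Batf, and barely, at 1.21, 1.04 and 0.995. Fos gave 1.33, 0.745 and 0.673, Jun 1.71, 0.55 and 1.24, and Jund 1.01, 1.53 and 1.02. The rim library of O had the highest macrophage marker sum of the series (6930 CPM), while those of rim F322 (980 CPM) and rim F86 (576 CPM) were the lowest; the part of these cells in the result was not tested.

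A comparison added after the values had been seen took the difference of core from rim as the mean of both genotypes, and it called Junb and Fosl2 lower in core. Junb had a log2 ratio of -0.55 (SE 0.109, adjusted p = 0.00854), 0.683-fold. Fosl2 had a log2 ratio of -0.83 (SE 0.215, adjusted p = 0.0304), 0.564-fold. These were 2 of 9 members, where 6.37 percent of all genes tested were called. Without WT rim H874 neither was called (adjusted p = 0.115 for Junb at -0.39, and 0.147 for Fosl2 at -0.81). Fosl2 was also not called without WT rim H877 (adjusted p = 0.0641), KO rim F322 (0.0631) or KO rim F86 (0.057). With the macrophage marker covariate the adjusted p was 0.107 for Junb and 0.249 for Fosl2, with log2 ratios of -0.47 and -0.65.

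The other 7 members were not called in that mean over genotypes. Fosb had a log2 ratio of 0.35 (SE 0.185, adjusted p = 0.292), Jund 0.45 (SE 0.235, adjusted p = 0.292) and Batf3 1.36 (SE 0.655, adjusted p = 0.243). Without WT rim H874 Fosb was 0.19 and without H877 it was 0.56, Jund was 0.27 without WT core H719, and Batf3 was 2.34 without WT rim H877. Jun had 0.84 (SE 0.582), which was 0.21 without WT core H719, 0.54 without KO core F318 and -0.088 when both were left out together. With the macrophage marker covariate, Fosb was 0.18, Batf3 0.19 and Jun 1.53. Fos, Batf and Atf3 differed by less than their SE. Whether the genotype effect differed between the sites was tested directly, and edgeR called 0 percent of all genes, with 1547 genes and 0 members at an unadjusted p under 0.05. DESeq2 called 150 genes there and limma-voom 0, in both cases without a member. A call on Junb in WT and none in KO is thus not shown to be a difference between the genotypes.

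**Figure D2:**
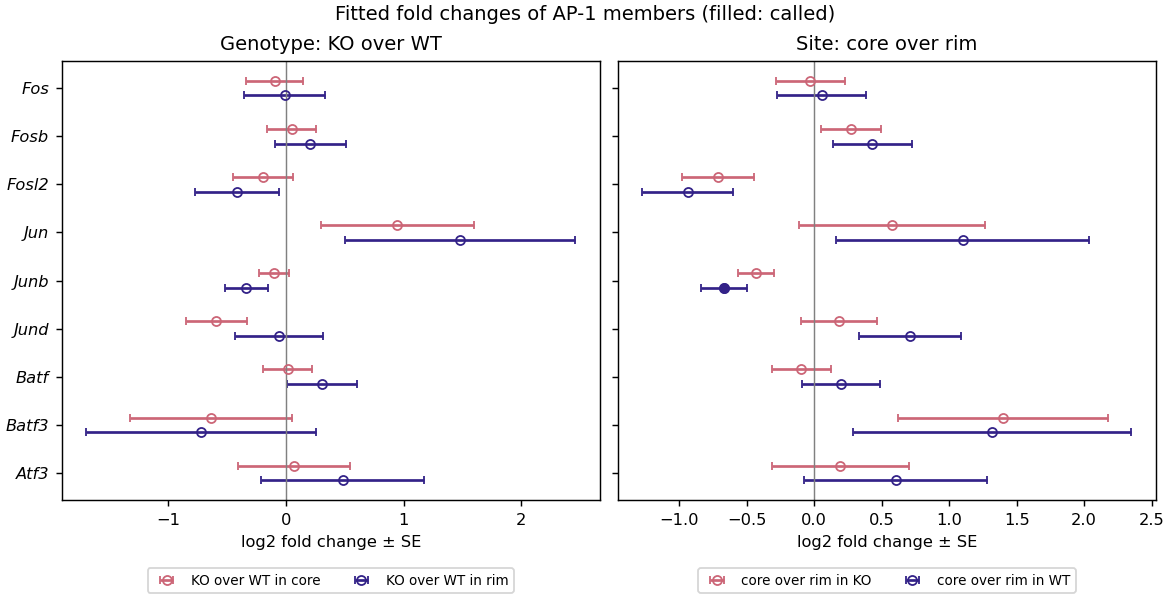
Fitted log2 ratio (log2 fold change) with its SE for each member, for KO over WT in core and rim and for core over rim in KO and WT; filled symbols are called at an adjusted p under 0.05. Junb and Fosl2 lie below 0 in both site comparisons and only Junb in WT is filled, while Jun and Batf3 carry the widest bars.

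Loss of endothelial PD-L1 was compared first in core tissue, and no member was called. By edgeR 0 percent of all genes were called, with 1244 genes and 1 member, Jund, at an unadjusted p under 0.05. DESeq2 called 9 genes and limma-voom 0, none of them members. The mean of Jund was 19.4 ± 5.19 CPM (SD, n = 6) for KO and 29.2 ± 14.6 CPM (SD, n = 5) for WT, a log2 ratio of -0.59 (SE 0.262, adjusted p = 0.796), with core H719 of WT at 53.5 CPM, and -0.23 without that library. Jun averaged 201 ± 175 CPM in KO core and 104 ± 135 CPM in WT core, a log2 ratio of 0.95 (SE 0.648, adjusted p = 0.975). Without WT core H719 that ratio was 2.21 (SE 0.532, adjusted p = 0.168), without KO core F318 it was 0.36, and without both it was 1.62 (adjusted p = 0.351). The other 7 differed by less than their SE. No member had groups that did not overlap, where 0.397 percent of all genes did, and the median log2 ratio was -0.095, beside -0.010 over all genes.

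In rim tissue, 0 percent of all genes and no member were called between KO and WT by edgeR, with 1480 genes and 0 members at an unadjusted p under 0.05. DESeq2 called 242 genes and limma-voom 8, and none was a member. Jun averaged 135 ± 52.9 CPM (SD, n = 4) in KO and 48.4 ± 16.3 CPM (SD, n = 2) in WT, with all 4 KO libraries above both WT libraries (log2 ratio 1.48, SE 0.979, adjusted p = 0.741). Fosl2 had all 4 KO libraries below both WT libraries, a log2 ratio of -0.42 (SE 0.358, adjusted p = 0.795). These 2 of 9 were the members without overlap, beside 13.7 percent of all genes. Junb had a log2 ratio of -0.34 (SE 0.181, adjusted p = 0.707), and its groups overlapped. It was -0.014 without WT rim H874 and -0.59 without H877. Batf had 0.31 (SE 0.3, adjusted p = 0.839), which was 0.86 without WT rim H874, -0.076 without H877 and 0.17 without KO rim F86. With the macrophage marker covariate, Jun was at 2.27, Fosl2 at -0.27 and Batf at 0.47, none of them called. Fos, Fosb, Jund, Batf3 and Atf3 differed by less than their SE, and the median over the members was -0.010, beside 0.011 over all genes.

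Fos (ENSMUSG00000021250.13, chromosome 12, 85473890 to 85477273) held nearly the same mean in all 4 groups. The means were 786 ± 350 CPM in WT core, 736 ± 166 in KO core, 757 ± 21.2 in WT rim and 752 ± 161 in KO rim. The lowest library was the WT core pool at 404 CPM and the highest WT core H876 at 1360 CPM. The KO libraries ran from 491 to 972 CPM. Every difference of Fos between groups was smaller than its SE, which sets what could have been seen. On the log2 scale this SE was 0.24 between KO and WT core and 0.343 between KO and WT rim. Between core and rim it was 0.256 in KO and 0.333 in WT.

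Batf (ENSMUSG00000034266.6, chromosome 12, 85686669 to 85709087) was not called in any comparison. It averaged 85 ± 21.3 CPM in WT core, 85.9 ± 18.6 in KO core, 74.2 ± 33.3 in WT rim and 91.8 ± 20.4 in KO rim. The lowest library was WT rim H877 at 50.6 CPM and the highest KO core F86 at 122 CPM. Core F86 was set off from the other KO core libraries, which lay between 68.8 and 84.6 CPM, and rim F86 was the highest KO rim library at 117 CPM.

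Fosb (ENSMUSG00000003545.3, chromosome 7, 19302696 to 19310051) ran from 46.7 CPM in WT rim H874 to 105 CPM in KO core F86. No rim library exceeded 83.3 CPM, while 7 of 11 core libraries did, and the share of all genes with such a count is not given here. Jund (ENSMUSG00000071076.6, chromosome 8, 70698949 to 70700616) ran from 13.8 CPM in KO rim O to 53.5 CPM in WT core H719. Of its 1668 exonic bases, 52.6 percent are shared with an antisense gene, Gm11175. No source used here says whether counting used strand, so reads from this pair cannot be told apart, and Jund values are uncertain for that reason.

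Jun (ENSMUSG00000052684.4, chromosome 4, 95049034 to 95052222, a gene of a single exon) encodes c-Jun, the main partner of the Fos proteins. In WT core its CPM were 24.8 (F164), 344 (H719), 44.9 (H873), 36.2 (H876) and 70.4 (pool). In KO core its CPM were 79.6 (F219), 540 (F318), 160 (F319), 226 (F322), 111 (F86) and 88.9 (O). H719 and F318 were thus far above the rest of their groups. In WT rim its CPM were 60 (H874) and 36.9 (H877), and in KO rim 133 (F15), 132 (F322), 201 (F86) and 72 (O). Jun shares 232 exonic bases with Junos, an antisense transcript, which was at most 2.44 CPM in any library.

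The 5 genes most like Jun across libraries were not immediate early genes. Chosen after its values were seen, by the Pearson correlation of log2 CPM over 17 libraries among 8980 genes that averaged 10 CPM or more, they included Eif3b (r = 0.946), Tomm40 (0.944), Pgls (0.943) and Rnaset2a (0.942). Eif3b, a subunit of a translation initiation factor, ran from 31 CPM in WT core F164 to 303 in WT core H719. Pgls, an enzyme of the pentose phosphate pathway, ran from 6.99 CPM in F164 to 86.6 in KO core F318. The ratio of highest to lowest library was 9.78 for Eif3b, 16.6 for Tomm40, 12.4 for Pgls and 6 for Rnaset2a. Egr1, an immediate early gene, was also lowest in WT core F164 (22.2 CPM) and high in WT core H719 (136) and KO core F318 (178). It was highest in KO core F322 (246 CPM) and stood at 98.2 CPM in WT core H876, where Jun was at 36.2. There were 179 genes with r above 0.8 to Jun, and between 2 and 27 for Fos, Fosb, Fosl2, Junb, Jund and Batf. Batf3 had 133 and Atf3 94 such genes. The part of whatever moved these genes in the level of Jun was not tested.

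**Figure D3:**
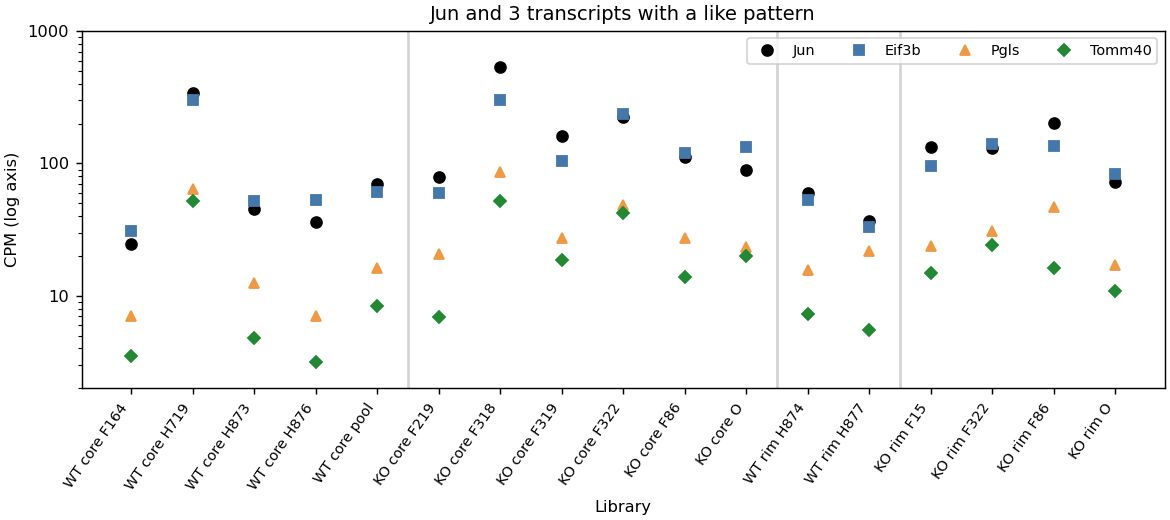
CPM (log axis) of Jun and of Eif3b, Pgls and Tomm40 in each of the 17 libraries, in the order of the groups; each symbol is 1 gene in 1 library. All 4 genes were high in WT core H719 and KO core F318 and low in WT core F164.

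For Junb, the 5 most similar genes by the same measure were Cnbp (r = 0.897), Eif1 (0.86), Stx5a (0.85), Clk1 (0.849) and Tuba4a (0.849). Cnbp encodes a nucleic acid binding protein and Eif1 an initiation factor of translation. For Fos they included Atp13a2 (r = 0.824), Zfp36 (0.821) and Tmcc3 (0.77). Zfp36 encodes tristetraprolin, which destabilises transcripts with AU-rich elements and is itself an immediate early gene. For Batf they were Mis18a (r = 0.841), Sh2d1a (0.821), Cd27 (0.808), Rhoh (0.79) and Atad5 (0.789). Sh2d1a encodes the adaptor SAP and Cd27 a co-stimulatory receptor, both of T cells. These correlations share libraries and groups and are given as a description.

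Among the 36 pairs of members, 3 correlated across the 17 libraries after Benjamini-Hochberg adjustment, each by a two-sided permutation test. Fosl2 and Junb gave Pearson r = 0.765 (p = 0.00035, adjusted p = 0.0063) and Spearman rho = 0.848 (p = 6e-05, adjusted p = 0.00216), with r = 0.831 when the 2 libraries farthest from the median of Fosl2 were left out. Once each library was taken relative to its group mean, r was 0.461, so the shared part of this pair lay largely between groups. Batf3 and Atf3 gave r = 0.812 (p = 8e-05, adjusted p = 0.00288) and rho = 0.748 (p = 0.00082, adjusted p = 0.014), with r = 0.715 without 2 libraries and 0.892 relative to the group means. Fosb and Batf3 gave r = 0.743 (p = 0.00068, adjusted p = 0.00816) and rho = 0.736 (p = 0.00117, adjusted p = 0.014), with r = 0.71 without 2 libraries and 0.737 relative to the group means.

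Atf3 (ENSMUSG00000026628.13, chromosome 1, 191170296 to 191218039) encodes a stress-induced factor that can act as a repressor. In WT core its CPM were 115 (F164), 44.4 (H719), 119 (H873), 250 (H876) and 59.8 (pool), and in WT rim 40.3 (H874) and 115 (H877). In KO core its CPM were 237 (F219), 108 (F318), 95.6 (F319), 116 (F322), 95 (F86) and 90.5 (O), and in KO rim 130 (F15), 51.5 (F322), 43.7 (F86) and 208 (O). High and low libraries thus occurred in both sites and in both genotypes.

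Libraries high in Atf3 were also high in macrophage markers, with exceptions. The 3 libraries with the highest Atf3 had macrophage marker sums of 5480 CPM (WT core H876), 4980 (KO core F219) and 6930 (KO rim O). WT rim H874, KO rim F86 and KO rim F322, with Atf3 between 40.3 and 51.5 CPM, had sums of 1070, 576 and 980 CPM. WT core F164 had a sum of 5220 CPM with Atf3 at only 115 CPM, and WT core H719 a sum of 1810 CPM with Atf3 at 44.4 CPM. The part of macrophage RNA in the level of Atf3 was not tested.

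Batf3 (ENSMUSG00000026630.9, chromosome 1, 191097847 to 191108945) was scarce and ran from 0.619 CPM in WT rim H874 to 15.8 CPM in WT core H876. The other WT core libraries held, in CPM, 6.12 (F164), 1.47 (H719), 4.84 (H873) and 1.66 (pool). KO core held, in CPM, 7.02 (F219), 6.44 (F318), 1.37 (F319), 3.62 (F322), 2.95 (F86) and 1.75 (O). WT rim H877 held 4.18 CPM, and KO rim held 1.1 (F15), 0.804 (F322), 0.629 (F86) and 3.28 (O). The sum of 5 dendritic cell markers was 1570 CPM in WT core H876 and 1840 in KO core F318, both high in Batf3, but 638 CPM in KO rim F86, where Batf3 was near its lowest. The part of dendritic cells in the level of Batf3 was not tested.

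**Figure D4:**
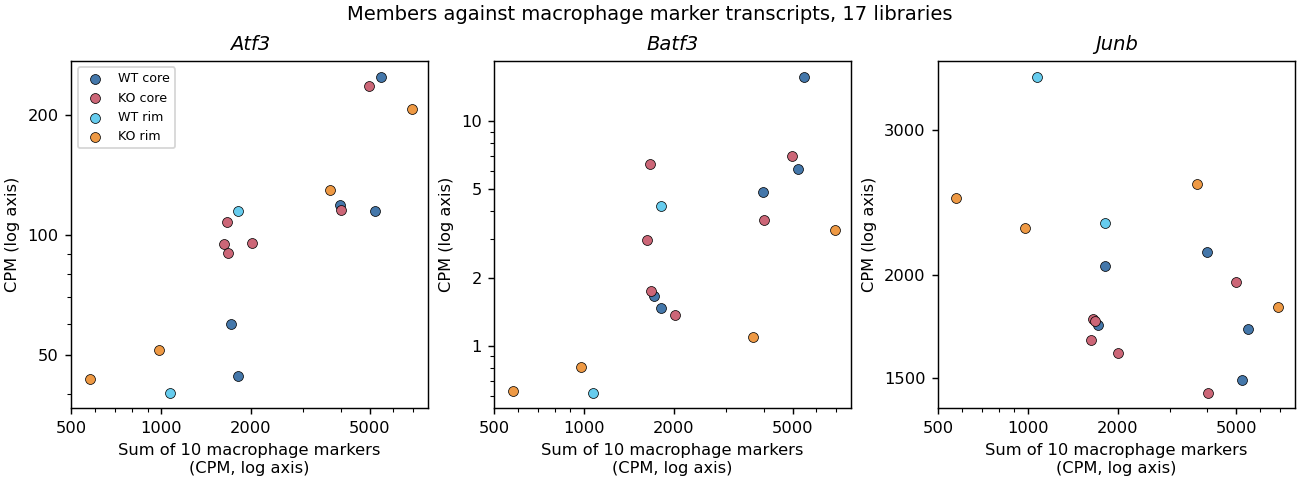
CPM of Atf3, Batf3 and Junb (log axis) against the summed CPM of 10 macrophage and monocyte markers (log axis); each point is 1 of the 17 libraries, coloured by group. Atf3 was highest in libraries with sums of 4980 to 6930 CPM, while Junb was highest in WT rim H874, which had a sum of 1070 CPM.

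The genes that act with or upon AP-1 were described by lists. Of 18 other bZIP factors, 1 was called between WT core and rim and 17 were not, beside 3.86 percent of all genes called, with a median log2 ratio of 0.11 beside 0.033 over all genes. Mafk, a small Maf protein that pairs with Bach and Fos proteins, fell from 288 CPM in WT rim to 128 in WT core (log2 ratio -1.16, SE 0.22, adjusted p = 0.0109). Jdp2, a dimer partner that represses AP-1, averaged 7.94 CPM in core and 1.47 in rim (adjusted p = 0.137), Atf4 117 and 172 (0.179) and Bach2, which competes for AP-1 sites, 29 and 57.9 (0.213). Of the 5 factors that bind composite sites with AP-1, 0 were called by edgeR. Among them Nfatc3 averaged 106 CPM in core and 200 in rim (adjusted p = 0.198), and Irf4, the partner of Batf, 69.9 and 84.2 (adjusted p = 0.717).

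Of 15 MAP kinases and serum response factor genes, which act upstream of Fos and Jun, 1 was called between WT core and rim, again beside 3.86 percent of all genes. Mrtfa, a co-activator of serum response factor, fell from 188 CPM in rim to 109 in core (log2 ratio -0.79, SE 0.188, adjusted p = 0.0297). Map3k1, a kinase above JNK, averaged 198 CPM in core and 323 in rim (adjusted p = 0.0516), Elk3, a ternary complex factor, 83.5 and 46.3 (0.0584) and Mapk3, which encodes ERK1, 60 and 35.3 (0.099). As the mean of both genotypes these 4 were called, Mrtfa and Map3k1 lower and Elk3 and Mapk3 higher in core, beside 6.37 percent of all genes. Of 14 brakes on the pathway, 0 were called in WT by edgeR, and 1 in the mean of both genotypes, Dusp10, a phosphatase of JNK and p38, at a log2 ratio of -1.30 (SE 0.288, adjusted p = 0.0144). That 1 of 14 is near the share over all genes.

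Of 16 T cell genes with known AP-1 or BATF-IRF sites, 2 were called higher in WT core than in WT rim and 0 lower, beside 3.86 percent of all genes called. Il2ra, the alpha chain of the interleukin 2 receptor, rose to 50 CPM in core from 11.7 in rim (log2 ratio 2.10, SE 0.478, adjusted p = 0.024). Ccl3, an inflammatory chemokine, rose to 242 from 30.4 CPM (log2 ratio 2.99, SE 0.737, adjusted p = 0.0332). Csf2 averaged 11.7 and 0.976 CPM (adjusted p = 0.094) and Pdcd1, the PD-1 gene, had a log2 ratio of 1.66 (SE 0.546, adjusted p = 0.103). The median over the 16 was 1.27, beside 0.033 over all genes, with 13 above 0 and 3 below. In the same comparison all 10 macrophage markers lay above 0, with a median of 2.35. Their part in Ccl3, which macrophages also make, was not tested. Between KO and WT rim the median was 1.10, with 13 of 16 above 0 and 0 called by edgeR. The smallest p there was that of Pdcd1, with a log2 ratio of 1.75 (SE 0.559, adjusted p = 0.45), and both site and genotype values rest on the same 2 WT rim libraries.

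Of the 23 immediate early and dissociation genes that are not members, 12 lay lower and 11 higher in WT core than in WT rim. The sum of their CPM, which the abundant genes dominate, was between 6820 and 9330 CPM in all 11 core libraries and between 9520 and 14900 CPM in all 6 rim libraries, without overlap. Their mean log2 CPM, which weights the genes equally, did overlap, from 6.91 to 7.47 in core and from 6.94 to 7.66 in rim. How often sums over other genes separate the sites in this way is not given here. As the mean of both genotypes, 15 of the 23 genes lay lower and 8 higher in core. In that mean 6 were called lower and 1 higher, beside 6.37 percent of all genes. In WT, 2 were called lower in core and 1 higher, beside 3.86 percent of all genes. Ier2, an early response gene, fell from 991 to 386 CPM (log2 ratio -1.36, SE 0.167, adjusted p = 0.00195). Ppp1r15a, a stress-induced phosphatase subunit, fell from 776 to 387 CPM (log2 ratio -1.0, SE 0.269, adjusted p = 0.0473). Hspa1b, a heat shock chaperone, rose from 19.9 to 257 CPM (log2 ratio 3.69, SE 0.971, adjusted p = 0.044), and Hspa1a averaged 118 CPM in core and 7.57 in rim (adjusted p = 0.0532). The part of tissue handling in the levels of Junb and Fosl2 was not tested.

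Other measures that moved with site are given beside the Junb and Fosl2 values. In WT, the macrophage markers C1qb and C1qc were called higher in core, C1qb at 247 CPM against 22.6 (adjusted p = 0.0328) and C1qc at 143 against 13.1 (adjusted p = 0.0335), and all 10 markers had a log2 ratio above 0, with a median of 2.35. Of 5 B and plasma cell markers, 4 lay lower and 1 higher in core as the mean of both genotypes. Their median log2 ratio was -1.25, and 0 were called. The sum of their CPM overlapped between sites, at 474 to 2260 in WT core and 610 to 781 in WT rim. In KO it was 193 to 3880 in core and 311 to 1310 in rim. The 10 percent of genes with the longest transcripts deviated by a log2 median of 0.27 in WT rim H874 and 0.13 in H877. The same deviation was 0.16 in KO rim F322, 0.09 in rim F86, 0.04 in rim F15 and -0.01 in rim O, and from -0.16 to 0.08 in the core libraries. The longest transcript of Fosl2 is 6537 bases, just under the 6731 that bound this class, and that of Junb is 1809. The part of these measures in the result was not tested. Junb shares 173 exonic bases with Prdx2, which ran from 63.8 CPM in WT rim H874, the library with the highest Junb, to 151 CPM in WT core H873.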

How the data were processed

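The deposited table holds unnormalised counts of reads for each gene symbol, as the authors made them. The submitters' processing notes name featureCounts and Subread 2.0.0, HISAT2, Bowtie2 2.4.5 and cutadapt 3.2, with GRCm38 (mm10) as the build. Their roles and settings, and strandedness, were not found in the sources at hand. The fit used edgeR 4.0.16 in R 4.3.3: filterByExpr kept 20137 genes, TMM factors scaled the libraries, and 1 robust quasi-likelihood fit over all 17 libraries gave two-sided F tests with Benjamini-Hochberg adjustment. An SE is the log2 fold change divided by the square root of F. CPM are TMM-scaled, log2 CPM have a prior count of 2, and RPKM use exon lengths of GENCODE M21. Positions of genes come from the same annotation.

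Alternatives were DESeq2 1.42.0, limma 3.58.1 voom with the identifier as a block, RLE factors, no filter, a macrophage marker covariate and leaving out libraries. The fit was tested on simulated data with genes changed by 1 on the log2 scale. Of the changed genes that passed the filter there, it recovered 9.78 percent for core over rim in WT and 23.7 percent in KO. For KO over WT it recovered 30.4 percent in core and 9.57 percent in rim. The members and the gene lists were chosen with earlier results of these data known. Named were all members, the 5 genes most similar to Fos, Junb and Batf (some of the genes most similar to Fos and Jun are not reported here), and from each list at most 4 genes by smallest p. The labels do not say which libraries come from separate animals, so p-values measure only the spread between these libraries, which may be technical. Depth was 21767045 to 32566456 counts per library.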

Additional observations from a re-analysis of the deposited data

Results flagged for a closer look

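Of 27 combinations of a member with a group of 4 to 6 libraries, 4 held a library whose distance to the nearest of the others took up an unusually large share of the range of its group, by the 95% limit of Dixon's test. Chance alone gives about 5 percent if values are normally distributed, which CPM need not be. All 4 flagged values were the highest of their group. Jun stood at 540 CPM in KO core F318 and at 344 CPM in WT core H719. Atf3 stood at 237 CPM in KO core F219. Batf stood at 122 CPM in KO core F86.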

How the results depend on the processing

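Of the fitted fold changes in the comparisons of genotype and of site and in the mean over genotypes, 22 reached their SE and were followed through the alternatives, and 23 did not. For the difference of the genotype effect between sites, only the number of calls was followed. The number of members called in WT core over rim (1) was 0 with the macrophage marker covariate, 0 in female libraries alone, and 0 with WT core H719 and KO core F318 left out together, and leaving out 1 library at a time gave 0 to 1. As the mean of both genotypes (2 called) it was 0 with the covariate and 1 in female libraries alone, and leaving out 1 library at a time gave 0 to 2. The sets of female libraries and of both high libraries out were chosen after seeing the data, as was the mean over genotypes. In the other 4 comparisons the number called was 0 under every alternative run. Reversals were Batf3 in WT core over rim with the covariate (-0.811), Jun in WT core over rim with both high libraries out (-0.158), and Jun in the mean of both genotypes with both out (-0.0877). Leaving out 1 library gave Batf in rim (KO over WT) -0.0758 to 0.855 and Jun in WT core over rim -0.158 to 1.48, both reversed at the low end. The cause was not tested. Junb and Fosl2 stayed below 0 in both site comparisons and their mean under every alternative run. Counts of all genes called depended on the tool: DESeq2 gave 1751 in WT core over rim and limma-voom 556, beside 777 by edgeR, and in the mean of both genotypes 2248 and 1160 beside 1283. Leaving out 1 library gave 68 to 795 and 189 to 1560 in these comparisons, and the covariate 78 and 168. With WT rim at 2 libraries, leaving out 1 assumes that the other varies like the remaining groups.

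Deviations from the group means of KO core and rim libraries with the same identifier correlated at 0.0721 (F322), 0.0449 (F86) and 0.0818 (O), none over 0.1. Each of these 3 core libraries correlated best with the rim library of its own identifier, and Xist and Ddx3y agreed in sex within each identifier. Seen from the rim, F322 also correlated best with its own core library. Rim F86 correlated better with core F318 (0.242), and rim O with core F219 (0.193). The identifiers are thus neither shown to pair the libraries nor shown not to. On the 3 shared identifiers, core over rim in KO gave 0 members called with a replicate block and 0 without. The log2 fold change of Junb was -0.445 with the replicate block and -0.449 without, and that of Fosl2 -0.476 and -0.467.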
